A study of Homo sapiens with 3 samples.

Results

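Group II let-7 precursors are the let-7 family hairpins whose primary processing leaves a single-nucleotide 3' overhang. They were studied here as sites of DICER contact in human cells. The 9 members were chosen by name, as the clusters whose sense annotation lists hsa-let-7a-1, hsa-let-7a-3, hsa-let-7b, hsa-let-7d, hsa-let-7f-1, hsa-let-7f-2, hsa-let-7g, hsa-let-7i or hsa-mir-98, out of 386 miRNA hairpins named in the replicate lists. They were set against the 3 group I hairpins hsa-let-7a-2, hsa-let-7c and hsa-let-7e, which carry the longer overhang usual for DICER substrates. Group II had 11, 10 and 9 clusters in replicates 1, 2 and 3, out of 335, 322 and 216 miRNA hairpin clusters and of 11577, 18065 and 5099 clusters in all. Group I had 4, 1 and 1.

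The 3 samples formed a single group of PAR-CLIP libraries with RNase T1, numbered as replicates 1, 2 and 3, from HEK293 cells, an established line of embryonic kidney origin. All 3 carried a FLAG-tagged DICER transgene in the Flp-In T-Rex background, a system that places a transgene at 1 recombination site. The labels do not say whether the transgene was induced or whether replicates were separate cultures, so the spread between them may be technical. In PAR-CLIP, ultraviolet light links RNA that holds a photoreactive uridine analogue to the bound protein, and the crosslinked sites read as T-to-C conversions.

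The deposited lists held 1306125, 1060791 and 595487 conversions in replicates 1, 2 and 3, of which 208066, 131427 and 82044 lay in miRNA hairpins. All 6 hairpins typical of HEK293 cells, of the miR-17-92 family and its paralogs, had clusters in every replicate. Summed over the 6, they had 14687 to 97582 conversions per replicate. Single hairpins ranged widely, with 72507, 17972 and 6817 conversions for MIR20A and 288, 139 and 91 for MIR25. Of 7 hairpins of liver, muscle, neurons and blood, only MIR142 had any, with 125, 23 and 0 conversions, and the others were at 0. Neither a control library lacking the tag nor RNA levels entered the comparisons, and a conversion count therefore reflects both contact and the amount of RNA.

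The let-7 miRNAs repress growth-promoting mRNAs and rise as cells differentiate. DROSHA releases the hairpin in the nucleus, and DICER then cuts off the terminal loop in the cytoplasm to leave a duplex of a 5p and a 3p arm. DICER prefers a longer 3' overhang than group II precursors have, and the terminal uridylyl transferases TUT4, TUT7 and TENT2 can add a single uridine that restores it. LIN28 proteins bind let-7 loops, often at a GGAG motif, and block maturation.

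The mature 5p arms show how alike the members are. All 12 let-7 hairpins share the seed GAGGUAG (bases 2 to 8), which is in capitals in these RefSeq sequences:
hsa-let-7a-5p: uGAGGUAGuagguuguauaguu
hsa-let-7f-5p: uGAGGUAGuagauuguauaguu
hsa-let-7b-5p: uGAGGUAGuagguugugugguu
hsa-let-7d-5p: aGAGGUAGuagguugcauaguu
hsa-let-7g-5p: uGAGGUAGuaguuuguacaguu
hsa-let-7i-5p: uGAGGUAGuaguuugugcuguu
hsa-miR-98-5p: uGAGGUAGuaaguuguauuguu
hsa-let-7c-5p: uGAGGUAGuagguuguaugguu
hsa-let-7e-5p: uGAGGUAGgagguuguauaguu

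The let-7a arm is made by hsa-let-7a-1 and hsa-let-7a-3 of group II and by hsa-let-7a-2 of group I, and the let-7f arm by hsa-let-7f-1 and hsa-let-7f-2. The sources used here do not say how the authors assigned reads that fit several such loci. The 5p arm starts with U in 8 of 9 group II and 3 of 3 group I hairpins, against 40.8% of 872 RefSeq hairpins with a 5p arm. The exception is hsa-let-7d.

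The hairpins differ most in the loop. These RefSeq hairpins (GRCh38.p14) are the leading member of each chromosomal unit, the members without GGAG, hsa-let-7d with the fewest conversions, and hsa-let-7e for group I. Capitals mark GGAG downstream of the 5p arm:
hsa-let-7a-3: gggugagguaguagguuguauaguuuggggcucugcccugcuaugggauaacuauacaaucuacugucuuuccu
hsa-let-7b: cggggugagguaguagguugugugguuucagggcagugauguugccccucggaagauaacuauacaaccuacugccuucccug
hsa-mir-98: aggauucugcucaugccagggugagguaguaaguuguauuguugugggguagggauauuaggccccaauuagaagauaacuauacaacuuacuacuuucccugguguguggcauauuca
hsa-let-7f-2: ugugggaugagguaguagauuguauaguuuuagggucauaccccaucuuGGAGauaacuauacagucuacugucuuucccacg
hsa-let-7a-1: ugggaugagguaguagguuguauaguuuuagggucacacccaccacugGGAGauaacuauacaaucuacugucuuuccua
hsa-let-7d: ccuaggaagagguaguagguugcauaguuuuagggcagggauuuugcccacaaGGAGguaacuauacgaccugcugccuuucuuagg
hsa-let-7e: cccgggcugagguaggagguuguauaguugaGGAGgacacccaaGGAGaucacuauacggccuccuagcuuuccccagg

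GGAG, searched on the RNA strand only, occurred after the 5p arm in 6 of 9 group II hairpins and 3 of 3 group I hairpins. Of the RefSeq hairpins with a 5p arm, 798 were searched, and 18.9% of these had it. hsa-let-7a-3, hsa-let-7b and hsa-mir-98 lacked it in this stretch. The stretch between the annotated arms was 26 to 36 nt in the 8 group II hairpins with both arms annotated, with a median of 33.0, and 23 nt in each group I hairpin. The median was 16.0 nt over 114 other hairpins with a cluster in all 3 replicates.

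Group II hairpins were contacted repeatedly, and 2 of them carried most of the signal. Of the 9 members, 7 had a cluster in all 3 replicates, hsa-mir-98 had one in replicates 1 and 2, and hsa-let-7d had one in replicate 1. In group I, hsa-let-7e had a cluster in all 3 replicates, and hsa-let-7a-2 and hsa-let-7c had one in replicate 1. Over all hairpins named in a replicate list, 41.5% had a cluster in all 3. hsa-let-7a-3 and hsa-let-7f-2 together held 62.4%, 70.6% and 78.5% of group II conversions in replicates 1, 2 and 3, a mean of 70.5% ± 8.05 (SD, n = 3).

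hsa-let-7a-3 (MIRLET7A3) led the group in every replicate. Its cluster lay in an exon of MIRLET7BHG, the host transcript it shares with hsa-let-7b (hg19 chromosome 22, 46508631 to 46508701, plus strand in replicate 1), and also within a stretch annotated as FLJ27365. It had 2659, 978 and 432 conversions from 135, 177 and 41 distinct reads in replicates 1, 2 and 3. It ranked 13 of 313, 19 of 298 and 21 of 192 hairpins by conversions. On the mean it held 0.850% ± 0.387 of hairpin conversions and 1.68% ± 0.318 of hairpin distinct reads (SD, n = 3).

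hsa-let-7f-2 (MIRLET7F2) lies in an intron of HUWE1, a ubiquitin ligase gene (hg19 chromosome X, 53584157 to 53584228, minus strand in replicate 1). It had 1467, 536 and 236 conversions from 94, 79 and 24 distinct reads in replicates 1, 2 and 3, ranking 23, 26 and 32. Its share of hairpin distinct reads was nearly the same in each replicate, at 0.944% ± 0.0372 (SD, n = 3), while its share of conversions was 0.467% ± 0.215.

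hsa-let-7a-1 (MIRLET7A1) and hsa-let-7b (MIRLET7B) came next, in an order that changed between replicates. hsa-let-7a-1, within an intron of the noncoding gene RP11-2B6.3 (hg19 chromosome 9, 96938242 to 96938315, plus strand in replicate 1), had 711, 303 and 103 conversions from 63, 38 and 9 distinct reads in replicates 1, 2 and 3. hsa-let-7b (hg19 chromosome 22, 46509571 to 46509645, plus strand in replicate 1) had 975, 166 and 47 conversions from 75, 30 and 4 distinct reads. hsa-let-7b was thus higher in replicate 1 and hsa-let-7a-1 in replicates 2 and 3. Their mean shares of hairpin conversions, 0.233% ± 0.108 and 0.217% ± 0.220 (SD, n = 3), differed by less than the spread.

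The other members had few reads. hsa-let-7i (MIRLET7I), in an intron of RP11-631N16.2 on chromosome 12, had 303, 53 and 11 conversions in replicates 1, 2 and 3. hsa-let-7g (MIRLET7G), in an intron of WDR82 on chromosome 3, had 143, 29 and 7. hsa-let-7f-1 (MIRLET7F1), next to hsa-let-7a-1 on chromosome 9, had 138, 46 and 15. hsa-mir-98 (MIR98) had 192 conversions in replicate 1 and 32 in replicate 2. hsa-let-7i was above hsa-let-7g in every replicate and above hsa-mir-98 where both had clusters, but below hsa-let-7f-1 in replicate 3. hsa-let-7f-1 was the lowest of these in replicate 1 and above hsa-let-7g and hsa-mir-98 in replicate 2, and the SDs of the 4 mean shares overlap. hsa-let-7d (MIRLET7D), the third hairpin of the chromosome 9 unit, had 25 conversions from 4 distinct reads in replicate 1.

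**Figure D1:**
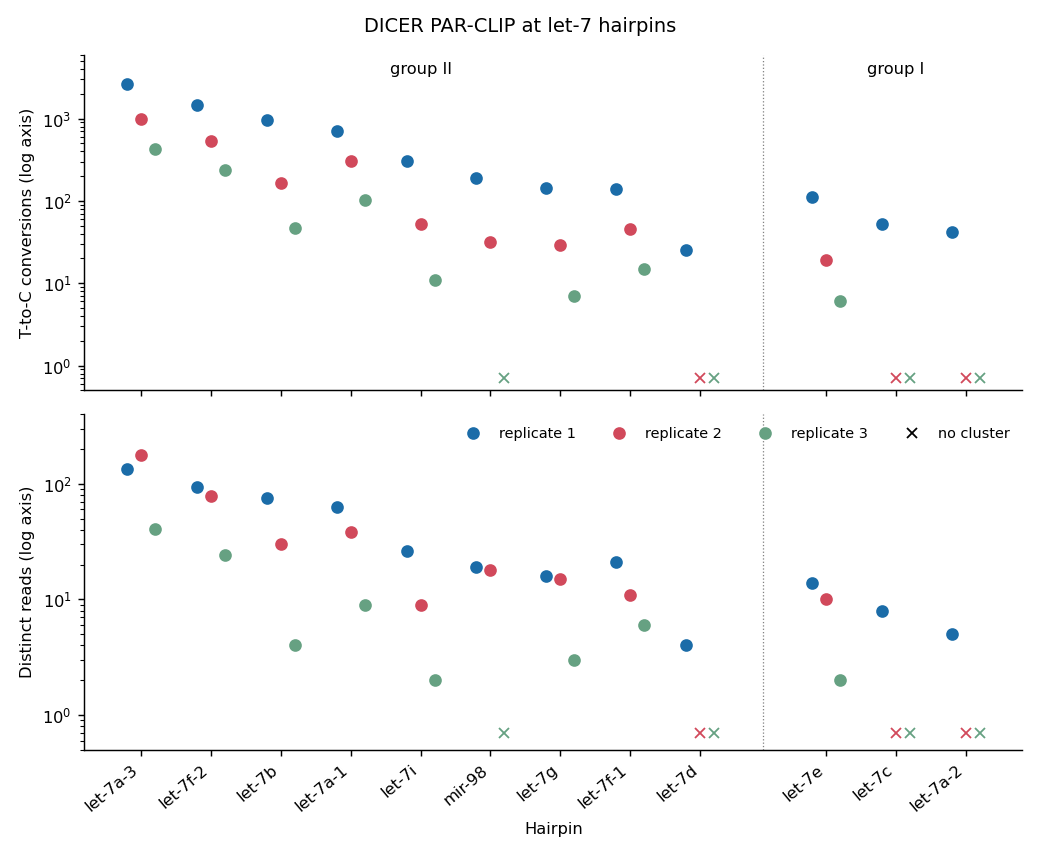
T-to-C conversions (top) and distinct reads (bottom) at each let-7 hairpin on log axes, 1 point per replicate and a cross where the list held no cluster. hsa-let-7a-3 runs from 2659 to 432 conversions and lies above the other members in each replicate, while hsa-let-7c and hsa-let-7a-2 of group I have points in replicate 1 only.

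The order of the members was much alike in the 3 lists. Spearman's rho of conversions over the 9 members was 0.933 between replicates 1 and 2, 0.845 between 1 and 3 and 0.954 between 2 and 3, a description over hairpins that share each library. The order by distinct reads was not the same among the weaker members: in replicate 2 hsa-let-7i, hsa-let-7f-1 and hsa-mir-98 had 53, 46 and 32 conversions but 9, 11 and 18 distinct reads. The 4 leading members held 92.2% ± 4.13 of group II conversions and 84.9% ± 3.44 of its distinct reads (SD, n = 3).

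Hairpins cut from the same transcript differed widely from each other. In the chromosome 22 unit, hsa-let-7a-3 had 2.73, 5.89 and 9.19 times the conversions of hsa-let-7b in replicates 1, 2 and 3, a mean log2 ratio of 2.40 ± 0.887 (SD, n = 3). By distinct reads the ratios were 1.80, 5.90 and 10.2. hsa-mir-4763, which RefSeq places between them, had 122, 176 and 89 conversions, so it was below hsa-let-7b in replicate 1 and above it in replicates 2 and 3.

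In the chromosome 9 unit, hsa-let-7a-1 had 5.15, 6.59 and 6.87 times the conversions of hsa-let-7f-1 in replicates 1, 2 and 3, a mean log2 ratio of 2.62 ± 0.224 (SD, n = 3). By distinct reads the mean log2 ratio was lower, at 1.32 ± 0.644. In HUWE1, hsa-let-7f-2 had 7.64 times the conversions of hsa-mir-98 in replicate 1 and 16.7 times in replicate 2, while replicate 3 listed no cluster for hsa-mir-98. By distinct reads the ratios were 4.95 and 4.39. The first-named hairpin was higher in every replicate where both had clusters. The 5p arms of hsa-let-7a-3, hsa-let-7a-1, hsa-let-7f-1 and hsa-let-7f-2 are each made by several loci. The ratios within these units may therefore depend on how such reads were assigned, which is not known here.

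Members without GGAG held more of the group's conversions than the members with it, but only when hsa-let-7a-3 was counted. The other members without it, hsa-let-7b and hsa-mir-98, had 975 and 192 conversions in replicate 1 and 166 and 32 in replicate 2. In replicate 3 hsa-let-7b had 47 and hsa-mir-98 no cluster. Members with GGAG had 2787, 967 and 372 in replicates 1, 2 and 3. The 3 hairpins that lack it had 57.9%, 54.9% and 56.3% of group II conversions in replicates 1, 2 and 3, most of them on hsa-let-7a-3, and the 6 that hold it had 42.1%, 45.1% and 43.7%. By distinct reads the hairpins without it had 50.6%, 59.7% and 50.6%. Binding of LIN28 was not measured.

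Group II hairpins had more conversions than group I hairpins in each replicate. Group II held 3.18% of hairpin conversions in replicate 1 (95% Wilson interval 3.10 to 3.25), 1.63% in replicate 2 (1.56 to 1.70) and 1.04% in replicate 3 (0.970 to 1.11). Group I held 0.0995% (0.0868 to 0.114), 0.0145% (0.00926 to 0.0226) and 0.00731% (0.00335 to 0.0160). These intervals cover counting error only, and conversions from copies of the same read are not independent molecules. The group II mean was 1.95% ± 1.11 and the group I mean 0.0404% ± 0.0513 (SD, n = 3).

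Per hairpin, mean log2(conversions + 1) was 8.46, 6.21 and 4.39 in group II in replicates 1, 2 and 3, against 6.0, 1.44 and 0.936 in group I. Hairpins without a listed cluster were counted as having no conversions, as were hsa-let-7a-2 and hsa-let-7c in replicates 2 and 3. The group I values of those replicates therefore rest on hsa-let-7e alone. The difference was 3.56 ± 1.16 on the log2 scale, with group II higher in each of the 3 replicates (p = 0.25 by a two-sided exact permutation of signs, and 0.31 after adjustment over 5 such tests). With 3 replicates this test cannot go below 0.25. The difference was 2.73 with only the hairpins that had a cluster. It was 1.58 when hairpins whose 5p arm is made by several loci were left out. In the series-wide list, whose clusters have reads from 2 or 3 replicates, it was 5.84. That list held no cluster for hsa-let-7a-2, hsa-let-7c or hsa-let-7d, which were counted as having no conversions, so group I rested there on hsa-let-7e alone.

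By distinct reads group II held 4.65%, 4.30% and 3.58% of all hairpin reads in replicates 1, 2 and 3, against 0.277%, 0.114% and 0.0805% for group I. The difference was 4.02 percentage points ± 0.461, higher in 3 of 3 replicates (exact sign-flip permutation p = 0.25, adjusted p = 0.31). Group II has 9 hairpins and group I 3, and with hairpins of a 5p arm of their own the difference was 0.734 points. The group II share was larger by distinct reads than by conversions in each replicate. Its clusters, pooled, had 15.9, 6.94 and 10.7 reads per distinct read, against 23.7, 16.1 and 34.6 over all hairpin clusters pooled. The median of the other hairpins with a cluster was lower, at 7, 3.21 and 9.32 in replicates 1, 2 and 3. The pooled group II value was thus below the pooled value of all hairpins but above the median hairpin in each replicate.

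Most members stood above the typical hairpin in replicates 1 and 2, but not clearly so in replicate 3. In replicates 1 and 2, 8 members had more conversions than the median of the other hairpins with a cluster (38.0 and 22.0), and in replicate 3 this held for 4 of the 7 members present (median 36.0). In group I it held for 3, 0 and 0 hairpins. By distinct reads 8, 8 and 4 group II members exceeded the median of the other hairpins, which was 8, 7 and 4. In group I, 1, 1 and 0 hairpins did so by this measure. The hairpins closest to hsa-let-7a-3 in the series-wide list, where it had 3499 conversions, were hsa-mir-26a-2 with 3436, hsa-mir-30e with 3289 and hsa-mir-6789 with 3806.

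**Figure D2:**
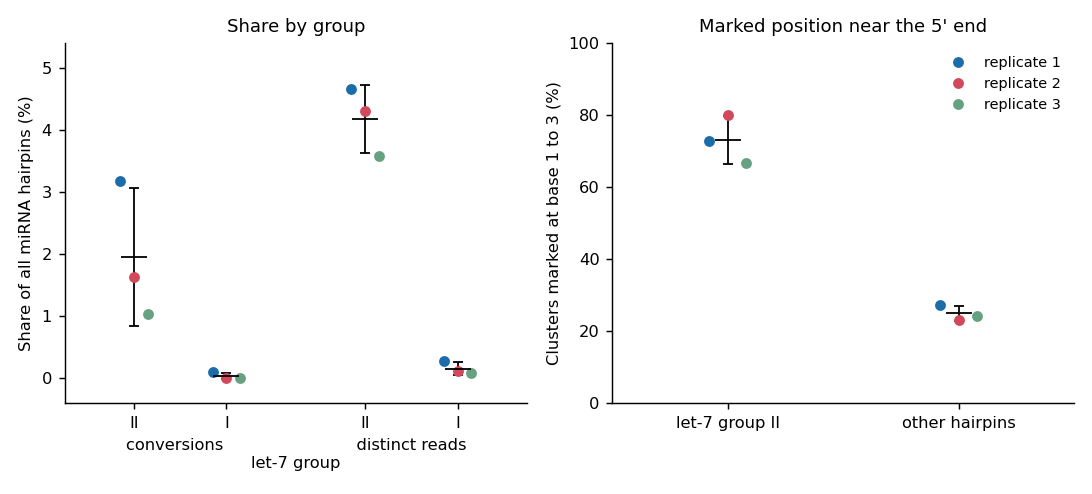
Left, share of all miRNA hairpin conversions and distinct reads held by let-7 group II and group I; right, share of clusters whose marked position lies at base 1 to 3, in group II and in other hairpins. Points are replicates and bars are mean ± SD (n = 3): group II held 1.95% of conversions and 4.18% of distinct reads, and 73.1% of its clusters were marked near the 5' end, against 24.9% in other hairpins.

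The share of converted reads did not separate the groups. Group II had 92.0, 81.9 and 89.3 conversions per 100 reads in replicates 1, 2 and 3, against 89.6, 57.6 and 100 in group I, which rested on 231, 33 and 6 reads. The difference was 5.31 ± 17.7 per 100 reads, positive in 2 of 3 replicates (exact sign-flip permutation p = 0.75, adjusted p = 0.75), and -4.17 without replicate 2. Over all hairpin clusters the value was 90.1, 93.1 and 95.4. Among the members, hsa-let-7a-3 had 92.5, 75.2 and 88.2, and hsa-let-7g reached the lowest value, 46.7 in replicate 3 on 15 reads.

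Taken over all lists and with gaps included, the clusters reached from end to end of a precursor at most members. From the outermost start to the outermost end, those of hsa-let-7a-3 spanned 71 nt, those of hsa-let-7f-1 and hsa-let-7i 78 nt, those of hsa-let-7g 79 nt and those of hsa-mir-98 81 nt. The distance from the first base of the 5p arm to the last base of the 3p arm in RefSeq is 69, 78, 78, 78 and 80 nt for these hairpins. For 7 of the 8 group II members with both arms annotated, the 2 lengths agreed within 3 nt, and the exception was hsa-let-7d, with a span of 25 nt against 76. In group I this held for hsa-let-7e (67 against 67 nt) but not for hsa-let-7c (45) or hsa-let-7a-2 (26). Single lists often covered less. The span in replicates 1, 2 and 3 was 51, 45 and 23 nt for hsa-let-7g, whose 79 nt rest on a cluster of 7 conversions and 2 distinct reads in the series-wide list. It was 78, 32 and 23 nt for hsa-let-7i, 74, 72 and 36 nt for hsa-let-7a-1, 75, 75 and 31 nt for hsa-let-7b and 71, 70 and 52 nt for hsa-let-7a-3. hsa-let-7f-1 spanned 78, 77 and 77 nt, with gaps of 24 nt in replicate 2 and 33 nt in replicate 3. Of 114 other hairpins with a cluster in all 3 replicates, 69.3% agreed, over all lists, within 3 nt. Only lengths were compared, since the clusters are on hg19 and the RefSeq arms on GRCh38.p14.

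**Figure D3:**
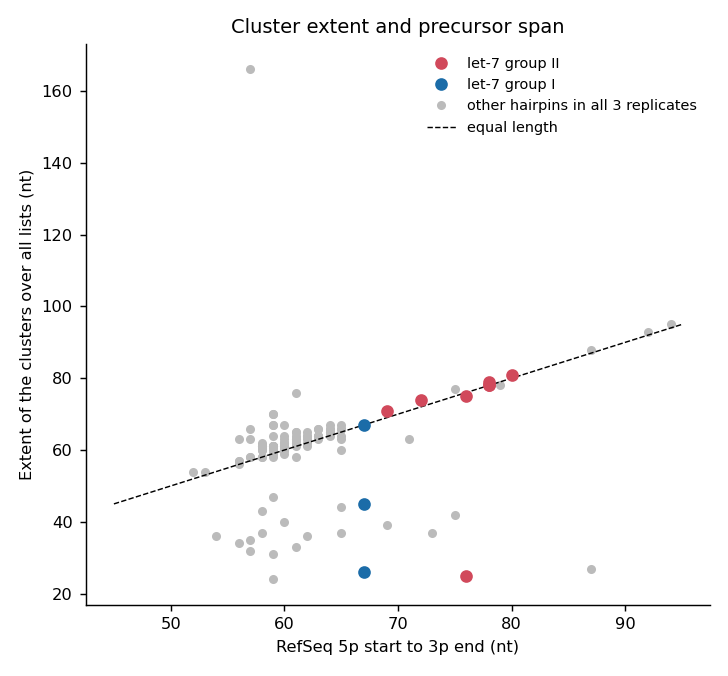
Distance from the first base of the 5p arm to the last base of the 3p arm in RefSeq (horizontal, nt) against the span of the clusters over all lists (vertical, nt), 1 point per hairpin. Grey points are other hairpins with a cluster in all 3 replicates. Group II points lie within 3 nt of the line of equal length apart from hsa-let-7d at 25 nt, while hsa-let-7c and hsa-let-7a-2 of group I lie below it.

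Clusters were longer in group II than in group I. Mean cluster length was 52.9, 49.1 and 30.3 nt in group II in replicates 1, 2 and 3, against 31.5, 29.0 and 22.0 nt in group I. The difference was 16.6 nt ± 7.20, longer in 3 of 3 replicates (exact sign-flip permutation p = 0.25, adjusted p = 0.31). It was 8.98 nt with hairpins of a 5p arm of their own. Group I had few reads, as above, and the part of read number in cluster length was not tested. Over all hairpin clusters the mean was 44.1, 42.3 and 33.1 nt.

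Some precursors were listed as an upstream and a downstream cluster, and the upstream one had more conversions. Group II had 6 such cases over 5 hairpins in the replicate lists, and this order held in all 6. hsa-let-7f-2 in replicate 3 had 216 conversions upstream and 20 downstream, with a gap of 7 nt. hsa-let-7i in replicate 1 had 252 upstream and 51 downstream, with a gap of 21 nt. hsa-let-7e of group I showed the same order in replicate 1, with 80 and 33, but in replicate 3 only its downstream stretch was listed, with 6 conversions. Among unit neighbours, hsa-mir-125a showed it in replicates 2 and 3 (86 and 15, 53 and 10). So did hsa-mir-4763 in replicates 1, 2 and 3 (88 and 34, 160 and 16, 76 and 13). For hsa-mir-125b-2 it held in replicate 2 (76 and 2), and replicate 3 listed only the downstream stretch. The order is thus not particular to group II, and it was not counted over all hairpins.

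**Figure D4:**
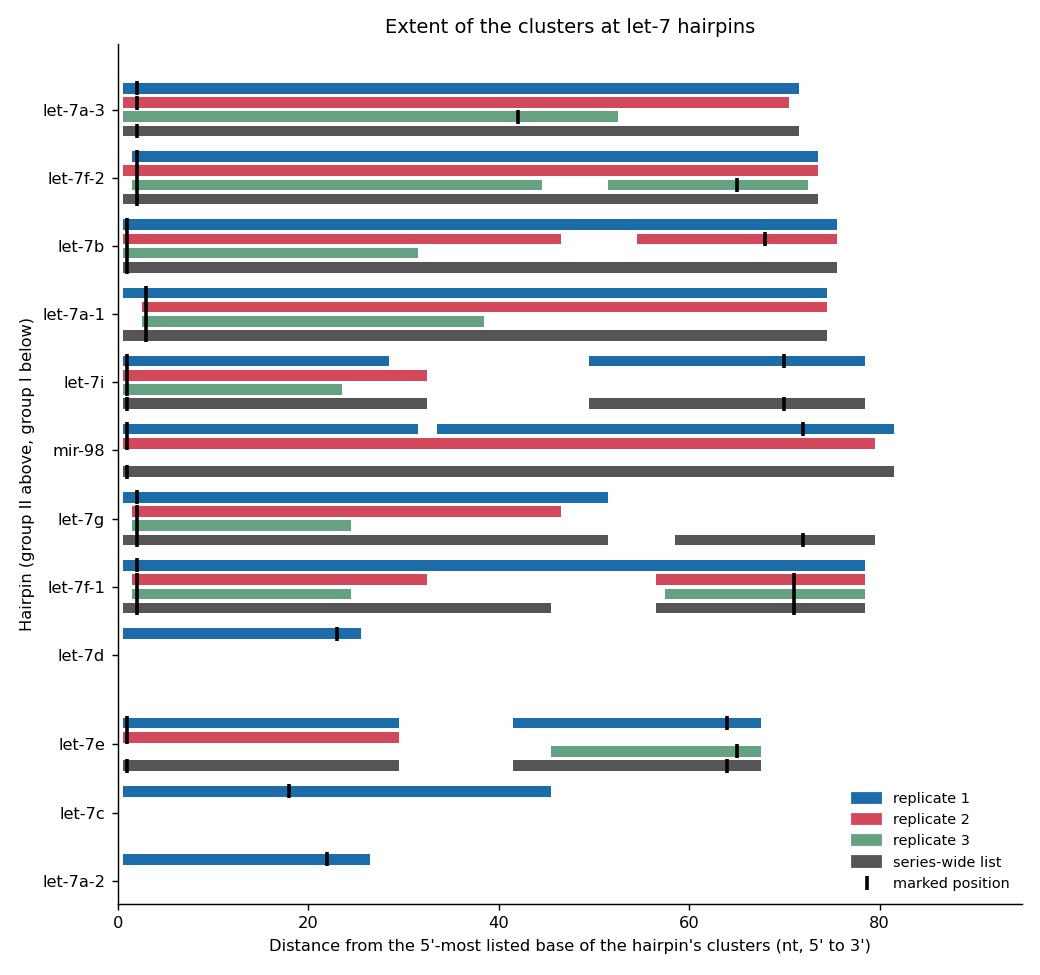
Clusters at each let-7 hairpin, drawn 5' to 3' as distance in nt from the 5'-most listed base of that hairpin, 1 bar per cluster and list; black ticks are the position marked for each cluster in the files. At 8 group II hairpins a cluster starts at the 5' end with its tick at base 1 to 3, and hsa-let-7d has a single cluster of 25 nt.

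The files mark 1 position in each cluster, and the sources used here do not define it. In group II this position was base 1, 2 or 3 from the 5' end of the cluster in 8 of 11, 8 of 10 and 6 of 9 clusters in replicates 1, 2 and 3. That is 72.7%, 80.0% and 66.7%, against 27.2%, 23.2% and 24.3% of clusters at other miRNA hairpins. In group I it was 1 of 4, 1 of 1 and 0 of 1 clusters, both marked ones being the upstream cluster of hsa-let-7e, so a mark at the 5' end is not shown to be particular to group II among let-7 hairpins. The difference between group II and other hairpins was 48.3 percentage points ± 7.60, higher in 3 of 3 replicates (exact sign-flip permutation p = 0.25, adjusted p = 0.31). The limit of 3 bases was chosen after the values were seen. The clusters of a hairpin and those of identical 5p arms are not independent.

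In replicates 1 and 2 these clusters held 98.6% and 99.0% of group II conversions. In replicate 3 they held 46.1%, because the mark of hsa-let-7a-3, with 432 conversions, moved from base 2 to base 42 of its cluster. At other hairpins, clusters marked at base 1 to 3 held 16.4%, 8.32% and 8.01% of conversions in replicates 1, 2 and 3. In group I they held 38.6%, 100% and 0%, of only 207, 19 and 6 conversions. The downstream clusters of hsa-let-7b, hsa-let-7f-1 and hsa-let-7f-2 were 21 or 22 nt long with the mark at base 14 or 15. That of hsa-let-7i was 29 nt long with the mark at base 21, and that of hsa-mir-98 was 48 nt long with the mark at base 39. The single cluster of hsa-let-7d had its mark at base 23 of 25, and that of hsa-let-7a-2 in group I at base 22 of 26.

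The neighbours of the group I hairpins differed among themselves. hsa-let-7a-2 lies in MIR100HG, and hsa-mir-100 and hsa-mir-125b-1 of the same unit had no cluster in any list. Beside hsa-let-7c, hsa-mir-99a had 9 conversions in replicate 1 and no cluster in the others. hsa-mir-125b-2, annotated to the same host LINC00478, had 174, 78 and 22 conversions in replicates 1, 2 and 3, while hsa-let-7c was listed in replicate 1 alone, with 52. hsa-let-7e itself had 113, 19 and 6 conversions in replicates 1, 2 and 3. In the same unit hsa-mir-125a had 447, 101 and 63 conversions and hsa-mir-99b had 74, 59 and 8. The abundance of the primary transcripts was not measured, and its part in the difference between groups II and I was not tested.

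Transcripts of the let-7 processing machinery were themselves contacted in part. Of 21 genes for let-7 processing, its regulators and the let-7 target HMGA2, 5 had an exonic cluster in all 3 replicates, 6 in 2, 5 in 1 and 5 in none, against 4.42% of 19443 protein-coding genes with one in all 3. The 5 were DICER1, DROSHA, DGCR8, KHSRP and LIN28B. DICER1 clusters may come from the transgene. DROSHA, which makes the precursors, had 458, 151 and 169 conversions in replicates 1, 2 and 3, and its partner DGCR8 had 47, 2 and 34. In coding sequence DGCR8 had 6 conversions in replicate 1 and all 2 of those in replicate 2. These clusters were as long as those of the hairpin hsa-mir-1306, at 25 and 26 nt. They may be that hairpin, and without them DGCR8 would not be among the 5. LIN28B, the let-7 inhibitor, had 100, 20 and 28 conversions in exons, in its coding sequence and 3' untranslated region. KHSRP, which binds the loops of let-7 precursors, had 46, 14 and 33. Distinct reads were few: 15, 11 and 4 for LIN28B, 9, 4 and 2 for KHSRP and 7, 2 and 2 for DGCR8. DROSHA had 55, 40 and 8. A KHSRP cluster in coding sequence recurred in all 3 replicates, but no LIN28B cluster overlapped in all 3.

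The uridylyl transferases TUT4 and TUT7, which act on group II precursors, had an exonic cluster in 2 replicates each. TUT4 had 0, 3 and 29 conversions in replicates 1, 2 and 3, and TUT7 had 21, 9 and 0. TENT2, which also adds nucleotides to group II ends, had 22 conversions in replicate 1. LIN28A, DIS3L2, which degrades uridylated let-7 precursors, and the export factor XPO5 had no exonic cluster, nor had AGO4 or HNRNPA1. HMGA2 had 6 conversions in replicate 2. Each of these counts rested on few distinct reads, at most 9 for TUT4, TUT7 and TENT2 in any list.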

How the data were processed

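RNA crosslinked to FLAG-tagged DICER was sequenced from 3 replicates, numbered as in the labels. The authors deposited, per replicate and for the series, a list of read clusters with a whole-number count of T-to-C conversions per cluster, not normalised to depth. Per the file attributes, each cluster has an estimated false discovery rate of 5%, replicate lists were filtered by length and each covers 2 sequencing runs. Bowtie2 2.1.0 and the build hg19 appear in the submitters' processing notes. Reads, distinct reads and annotation came from the attribute text. Lists hold only called clusters, with at least 2 distinct reads in each replicate, so a hairpin without a cluster is not shown to lack reads. Read numbers limit the precision of weak members.

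Conversions were summed per hairpin name with Python 3.11.15, pandas 2.3.3, NumPy 2.4.6 and SciPy 1.17.1. No cluster named more than 1 hairpin. Log2 values had 1 added. Group II was compared with group I, or with other hairpins, within each replicate, and the differences were tested over replicates by exact sign-flip permutation with Benjamini-Hochberg adjustment. Calculations were tested on simulated lists. Hairpin names were matched to RefSeq tables (GRCh38.p14) for sequences and arm distances, 366 of 396 names with success. Exons of genes were matched by RefSeq transcript name. All 9 group II and 3 group I hairpins, their unit neighbours, and genes of a fixed list with an exonic cluster in all 3 replicates were named; TUT4, TUT7, TENT2, HMGA2 and the genes without a cluster, all from that list, and the neighbour hsa-mir-125b-2 were added after their values were seen. Members, lists and tests were chosen with earlier results of these data known. Alternatives covered the weight, denominator, pseudocount, read minimum, hairpins and replicates.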

Additional observations from a re-analysis of the deposited data

How the results depend on the processing

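Of 63 alternative values, 59 kept their direction and, where no test applied, stayed within the spread between replicates; for the count of members this meant within 1.5 times. The mean group II share of hairpin conversions, 1.95%, was 4.18% with distinct reads as the weight, 0.284% with all clusters as the denominator and 0.360% for hairpins with a 5p arm of their own; leaving out 1 replicate gave 1.33% to 2.40%. The difference in conversions per 100 reads was -4.17 to 13.3 when 1 replicate was left out, and the negative value came without replicate 2. The difference in mean log2 conversions ranged from 1.58 to 5.84, in cluster length from 8.98 to 24.7 nt, in the share of distinct reads from 0.734 to 4.34 points and in clusters marked at base 1 to 3 from 43.4 to 56.5 points. The causes were not tested. The count of members in all 3 replicates, 7, was 6 with at least 10 conversions and 6 with at least 3 distinct reads, where 33.2% and 29.0% of hairpins passed. With at least 3 distinct reads group I had no cluster in replicate 3, so its rate and length rested on 2 replicates. Leaving out hsa-let-7a-3, using hsa-let-7e alone for group I, and the whole analysis of marked positions were added after the data were seen. The comparisons of hairpin groups were paired within each replicate throughout.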

Other observations

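RefSeq lists 14 hairpins with a mature arm of the seed GAGGUAG, the 12 let-7 hairpins and hsa-mir-4458 and hsa-mir-4500. Neither of the last pair had a cluster in any list. No cluster lay antisense to a let-7 hairpin.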
